A study of Mus musculus with 2 samples.

Results

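The cytochrome P450 genes of the Cyp1, Cyp2 and Cyp3 families, without the Cyp2c subfamily, Cyp1a2 and Cyp2e1, were compared between livers of PPARα-null and wild-type mice that both received fenofibrate. They were chosen by symbol alone: a probe set belonged when its platform gene symbol began with Cyp1a, Cyp1b, Cyp2 followed by a letter, or Cyp3a, and was not among those left out. This gave 41 probe sets out of 45037, control probe sets aside. Of these, 39 carried 1 symbol and stood for 30 of the 18193 named genes of the array, and 2 carried several symbols, a Cyp2a pair and a Cyp3a pair, and name no gene. RefSeq (GRCm38.p6) lists 43 protein-coding genes that meet the rule, of which 33 had a probe set here, and 22 pseudogenes, of which 1, the transcribed pseudogene Cyp2d13, had one. The other 10 protein-coding genes were not analysed here.

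The mutants were pparalpha -/- mice of strain 129SvEJ, set against wild-type mice of that strain. All were males, 8 weeks old, whose chow held 0.2% fenofibrate over 7 days. Liver RNA of 3 mice per genotype was pooled and hybridised to 1 short oligonucleotide array, so there is 1 sample per group, and the spread between mice cannot be seen. No arrays of animals on a drug-free diet were analysed here, so differences present without the drug and differences in the response to it cannot be told apart. Which exons of Ppara were disrupted is not stated in the labels.

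Cytochrome P450 enzymes of families 1 to 3 are heme proteins of the endoplasmic reticulum that oxidise drugs, pollutants, steroids, vitamin D and fatty acids. In hepatocytes, the main cells that make them, each subfamily answers to its own sensors: the aryl hydrocarbon receptor (Ahr) drives Cyp1 genes, the constitutive androstane receptor (CAR, encoded by Nr1i3) drives Cyp2b genes, and the pregnane X receptor (PXR, encoded by Nr1i2) drives Cyp3a genes. Several mouse members also differ by sex under growth hormone. PPARα, the receptor that fenofibrate activates, binds direct repeats of the half-site AGGTCA together with a retinoid X receptor, and its best known P450 targets belong to family 4.

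No replicates exist, so no test, error or p-value is given and differences are described by size. Signal intensities are the authors' values on a linear scale, with each array scaled to a target of 1000. The median signal over each array's probe sets, controls left out, served as its floor, which was 269.4 for null and 287.8 for wild type. Dimmer signals were set to the floor, so that a gene above it on 1 array only has a bound ("at least" a given fold). A gene is given at its brightest probe set, and ratios are null over wild type. As a yardstick for scatter between probe sets, log2 ratios within a gene had a pooled SD of 0.42 (3917 genes with 10117 probe sets). This SD holds no spread between mice, pools or arrays. Signals of different probe sets are not comparable as amounts of RNA.

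The 3 probe sets of Ppara gave 3414, 2953 and 1551 on the null array, against 7957, 5833 and 4312 on the wild-type array, so the targeted gene was lower on the null array at each. Of the 11 hepatocyte markers listed, 9 had a value and all 9 had positive log2 ratios as deposited, with a median of 0.26. Their summed signals were 1256994 in null and 1068443 in wild type. The 18 probe sets of hybridization controls, bacterial and phage RNA added to each sample, were all brighter on the null array, with a median log2 ratio of 0.38. Scaling to these controls would thus turn the median of the hepatocyte markers negative. Among markers of other cells, 6 of the 7 measured Kupffer cell genes had positive log2 ratios as deposited, with summed signals of the list of 22047 in null and 15191 in wild type. The 6 lay above the floor on both arrays (median 0.63, and 5 of the 6 still positive after scaling to the hybridization controls), and the 7th, Cd68, gave 204.3 in null and 373.5 in wild type, at least 1.39-fold lower. Both measured erythroid genes (1 only as a bound) and 2 of 3 measured genes of exocrine pancreas were also higher in null. Among them were Alas2 with 7033 in null and 4190 in wild type (1.68-fold) and Cela1 with 5948 in null and 2934 in wild type (2.03-fold). The other pancreas gene was lower (log2 ratio -0.53). Ratios as deposited were positive for 5 of 7 measured genes of sinusoidal endothelium, 4 of 7 of stellate cells, 1 of 2 of kidney tubule and 0 of 1 of intestine. The share over all 13041 measured genes was 49.6%. Pecam1 of endothelium was at least 2.36-fold lower in null, and Cdx2 of intestine at least 2.05-fold. Both are bounds, since their null signals of 228.0 and 264.2 were under the floor, against 636.9 and 552.8 in wild type. The brightest Bacillus control of the null array, a second measure of background described below, gave 422.4. With that as the null floor neither bound would reach 2-fold, and none would be left for Cd68. Of the lymphocyte and cholangiocyte genes with a value, 0 of 6 and 0 of 5 were above the floor on both arrays. Whether these shifts have a part in the P450 differences below was not tested, and in whole liver a change in cell number and one in RNA per cell cannot be told apart.

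Members of the Cyp2d subfamily lie side by side on mouse chromosome 15. Their log2 ratios were positive throughout as deposited, with sizes that differed between neighbours, against 52.2% of all genes above the floor on both arrays. After the scaling to hybridization controls described below, 3 of 6 members were positive, against 20.0% of all genes. To show how alike their proximal control regions are, the RefSeq promoters of a bright member with a small difference (Cyp2d9), a bright member with a larger one (Cyp2d10) and the member with the largest ratio on both arrays (Cyp2d40) are printed with that of Cyp2b10, the subfamily 2b member with a difference at each of its probe sets. Each holds 250 bases before and 50 after the annotated start, on build GRCm38.p6, written along the gene's own strand: Cyp2d9 at chr15:82452127-82452426 (plus strand), Cyp2d10 at chr15:82407145-82407444 (minus strand), Cyp2d40 at chr15:82764073-82764372 (minus strand) and Cyp2b10 at chr7:25897408-25897707 (plus strand). Capitals mark TATAAA (or its reverse complement TTTATA) and the half-site AGGTCA (or TGACCT).
Cyp2d9: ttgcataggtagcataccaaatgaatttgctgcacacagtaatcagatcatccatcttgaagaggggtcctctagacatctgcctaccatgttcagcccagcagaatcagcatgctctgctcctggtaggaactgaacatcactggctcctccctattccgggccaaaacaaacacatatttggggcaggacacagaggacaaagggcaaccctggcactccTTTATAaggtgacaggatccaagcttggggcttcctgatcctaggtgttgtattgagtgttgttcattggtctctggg
Cyp2d10: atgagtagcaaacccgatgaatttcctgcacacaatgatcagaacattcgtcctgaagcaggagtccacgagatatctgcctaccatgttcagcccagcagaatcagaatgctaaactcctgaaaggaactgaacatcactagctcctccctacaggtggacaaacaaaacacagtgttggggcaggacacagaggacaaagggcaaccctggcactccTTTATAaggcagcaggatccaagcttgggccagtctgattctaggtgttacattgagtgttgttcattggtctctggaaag
Cyp2d40: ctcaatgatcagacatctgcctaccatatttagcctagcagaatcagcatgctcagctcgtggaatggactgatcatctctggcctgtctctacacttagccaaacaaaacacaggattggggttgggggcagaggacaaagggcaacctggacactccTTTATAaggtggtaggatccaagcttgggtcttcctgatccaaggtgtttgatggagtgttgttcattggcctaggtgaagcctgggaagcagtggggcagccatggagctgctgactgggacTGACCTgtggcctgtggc
Cyp2b10: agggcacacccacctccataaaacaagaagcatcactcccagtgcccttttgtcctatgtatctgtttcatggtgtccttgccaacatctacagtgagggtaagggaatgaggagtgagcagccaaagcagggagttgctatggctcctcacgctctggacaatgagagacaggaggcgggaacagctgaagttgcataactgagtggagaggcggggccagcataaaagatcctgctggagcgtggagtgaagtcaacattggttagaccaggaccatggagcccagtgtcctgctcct

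The Cyp2d9 and Cyp2d10 promoters were identical at 255 of 306 aligned positions (83.3%). Positions opposite a gap, also at the ends, count as not identical. By this count Cyp2d40 matched Cyp2d9 at 199 of 364 positions (54.7%) and Cyp2d10 at 197 of 361 (54.6%). Values between the 3 Cyp2d promoters and that of Cyp2b10 were 48.5% to 51.7%. The Cyp2d40 window is offset from those of Cyp2d9 and Cyp2d10, as the shared run below shows. Its low values with them therefore do not measure how unlike the overlapping bases are. The longest run common to the 3 Cyp2d promoters, cagaggacaaagggcaacc, has 19 bases and begins at position -57 of Cyp2d9, -60 of Cyp2d10 and -120 of Cyp2d40, counted from the annotated start as 1, so the start of Cyp2d40 is annotated further downstream. It occurs in 3 of the 32851 promoters of the RefSeq table. TTTATA began at position -28 of Cyp2d9, -31 of Cyp2d10 and -91 of Cyp2d40. Among these promoters only that of Cyp2d40 held an exact copy of the half-site, at position 33. Variants of the half-site were not searched, so sequences close to AGGTCA, in the shared run or elsewhere, were not counted. A shared run of 16 bases ends at position 42 of Cyp2d9, 39 of Cyp2d10 and -22 of Cyp2d40. The bases of Cyp2d9 and Cyp2d10 that would match the half-site thus lie beyond their windows. Its absence from these windows therefore shows no difference between the 3 genes. Neither motif was found in this window of Cyp2b10. Both strands were searched in the 28 genes of the 3 families that had a probe set here and a promoter in the table. AGGTCA occurred in at least 1 promoter of 11 of these genes, against 16.3% of all promoters, and TATAAA in 14 of 28, against 13.6%. The counts are per gene and the shares per promoter, so a gene with several promoters has more chances of a match. Related genes share promoter sequence, so these 28 are not independent.

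None of the 17 genes of the 3 families that exceeded the floor on both arrays differed by 2-fold or more, where 2.24% of the 10060 such genes of the array were higher in null and 3.61% lower. A further 9 genes, 8 above the floor on the null array only and 1 on the wild-type array only, have at most a bound, none of which reached 2-fold. A bound does not say whether the gene itself did: without a floor, the signals of Cyp2b13, Cyp2d12, Cyp2d34 and Cyp2g1 were over 2-fold higher in null and those of Cyp2b19 over 2-fold lower. By the floored values 0 of the 26 measured genes were at least 2-fold higher (all 13041 measured genes 2.80%) and 0 lower (4.99%), while Cyp1b1, Cyp2j11, Cyp2j13 and Cyp3a16 exceeded neither floor. Among the 17, as deposited, 14 log2 ratios were positive and 3 negative, against 52.2% positive over 10060 genes. Scaling to the hybridization controls subtracts 0.38 from the log2 ratio of every gene, which left 5 of the 17 (29.4%) and 20.0% of the 10060 positive. The deposited log2 ratios of the 17 ran from -0.37 to 0.93 with a median of 0.21, against 0.02 for all 10060 genes. At 1.5-fold or more, 4 of the 17 were higher in null (all genes 10.2%) and 0 were lower (all genes 11.5%), but after the control scaling 0 were higher (2.52%) and 1 was lower (30.2%). Counting bounds as well, 6 of 26 were at least 1.5-fold higher (all genes 11.0%) and 1 was lower (14.8%), which became 0 higher (3.12%) and 2 lower (33.7%). Counted by probe set, 22 of the 26 that exceeded both floors had positive ratios (all probe sets 52.1%), 9 were at least 1.5-fold higher (10.8%) and 0 were lower (11.5%). After the control scaling 11 of the 26 were positive (20.7%), 0 were at least 1.5-fold higher (2.71%) and 2 were lower (30.4%).

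**Figure D1:**
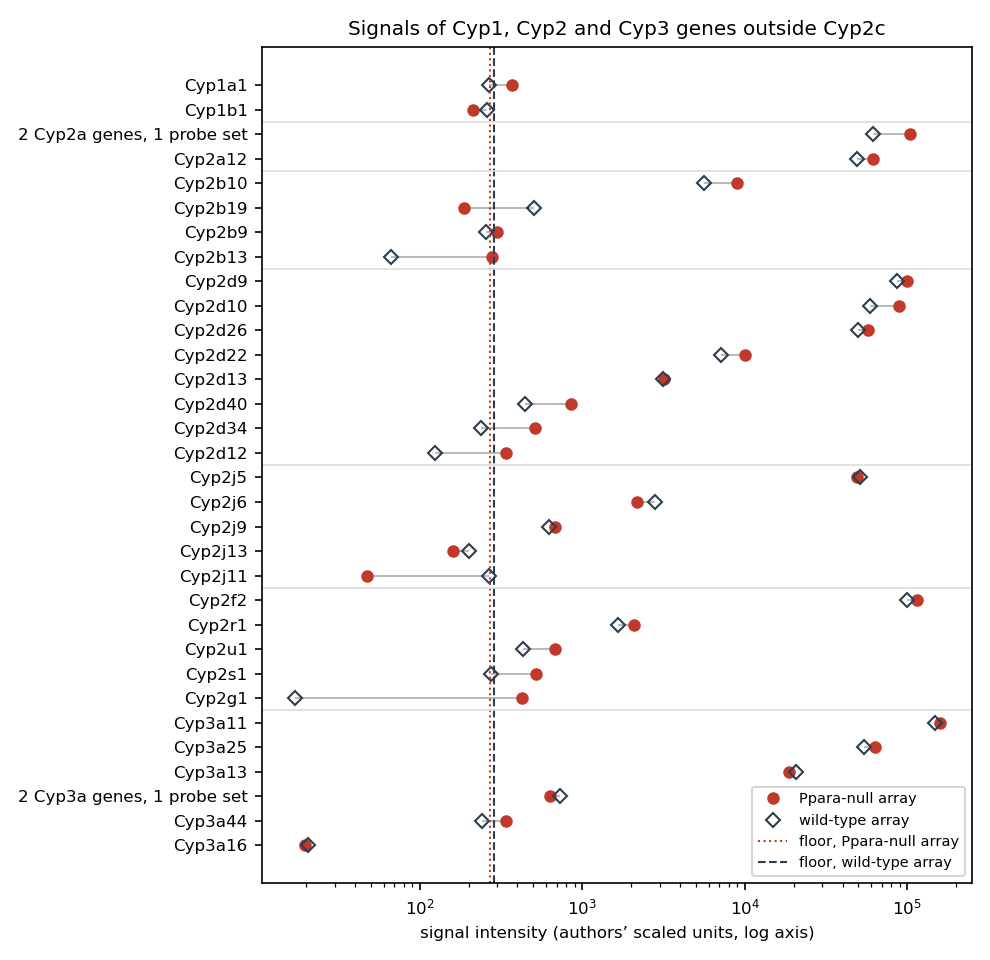
Signal intensity (log axis) of each gene at its brightest probe set, and of the 2 probe sets with several symbols, on the Ppara-null array (filled circles) and the wild-type array (open diamonds), 1 array each; vertical lines mark the floors of 269.4 and 287.8. The widest gaps, as for Cyp2g1, lie at genes with a signal under a floor, and no gene that exceeds both floors shows a gap of 2-fold.

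Family 1 was at or near the floor. Cyp1a1, the classic target of Ahr, gave 372.7 on the null array, against 268.5 on the wild-type array, a bound of at least 1.30-fold. No bound was left after the control scaling (log2 -0.01). Even the null signal was dimmer than the brightest Bacillus control on that array (422.4), a probe set against bacterial RNA that served as a second measure of background. Cyp1b1, an extrahepatic P450 that activates polycyclic hydrocarbons, was under the floor at all 3 probe sets, the brightest of which gave 214.2 in null and 259.3 in wild type.

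The Cyp2a subfamily includes the coumarin 7-hydroxylase of mouse liver, and as deposited both of its probe sets were brighter in null. The probe set shared by a pair of Cyp2a genes gave 104470 in null livers and 61321 in wild-type livers, a 1.70-fold difference (log2 ratio 0.77, and 0.39 after scaling to the hybridization controls). Cyp2a12, a steroid hydroxylase, gave 61826 in null and 49081 in wild type, 1.26-fold as deposited, while the control scaling turned its log2 ratio from 0.33 to -0.05. The shared probe set cannot say which of its genes carries the difference.

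Cyp2b10, the standard readout of CAR activity, was higher in null at each of its 3 probe sets. They gave 9006, 7564 and 5457 on the null array, against 5628, 4025 and 2905 on the wild-type array. The folds were 1.60, 1.88 and 1.88, and the log2 ratios of 0.68, 0.91 and 0.91 became 0.30, 0.53 and 0.53 after scaling to the hybridization controls. No probe set of the gene thus changed direction under that scaling, and their differences from each other were smaller than the pooled SD of 0.42.

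The other Cyp2b genes were dim. Cyp2b9 and Cyp2b13, which are expressed mainly in female liver, gave 299.7 and 278.9 on the null array, against 255.5 and 66.6 on the wild-type array. All 4 signals lay under the brightest Bacillus controls, and for Cyp2b13 the floor leaves no fold. Cyp2b19, known from keratinocytes, was the 1 gene with a bound in the opposite direction, with 187.7 in null and 508.7 in wild type, at least 1.89-fold lower in null (log2 -0.92, or -1.30 after the control scaling). With the brightest Bacillus controls as floors the bound was only 1.20-fold. Apart from Cyp2b10, no Cyp2b gene exceeded both floors.

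The Cyp2d genes encode hydroxylases of basic drugs and steroids. In this subfamily 6 of 6 genes above the floor on both arrays had positive log2 ratios as deposited (median 0.34), against 52.2% of all such genes. Of these genes, 5 of 6 were positive after quantile normalization or after removal of the signal-dependent trend. After scaling to the hybridization controls 3 of 6 were, against 20.0% of all genes. Cyp2d40 showed the largest ratio among these, with 849.3 in null and 446.9 in wild type (1.90-fold, log2 ratio 0.93, or 0.55 after the control scaling). Its signals were only about 3.15 and 1.55 times the floors.

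Cyp2d10 gave 89237 in null and 59035 in wild type, a 1.51-fold difference with a log2 ratio of 0.60, or 0.22 after the control scaling. Cyp2d22 gave 9995 in null and 7187 in wild type at its brighter probe set (1.39-fold) and 5847 in null and 3068 in wild type at the other (1.91-fold). Their log2 ratios of 0.48 and 0.93 differ by 0.45, about the size of the pooled SD, and became 0.10 and 0.55 after the control scaling. Cyp2d9, a testosterone 16-alpha-hydroxylase of male liver, had a smaller ratio, with 99580 in null and 86096 in wild type (1.16-fold). Cyp2d26 likewise gave 57287 in null and 50136 in wild type (1.14-fold), and the control scaling turned both ratios negative, to -0.17 and -0.19.

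The pseudogene Cyp2d13 gave 3180 in null and 3133 in wild type (1.02-fold) at its brighter probe set, and 2501 in null and 2005 in wild type (1.25-fold) at the other. On the log2 scale these ratios were smaller than the pooled SD between probe sets of a gene. The genes Cyp2d34 and Cyp2d12, whose wild-type signals were under the floor, have only bounds. Cyp2d34 gave 512.7 in null and 238.5 in wild type, at least 1.78-fold higher in null (1.37-fold after the control scaling). Cyp2d12 gave 339.6 in null and 124.1 in wild type, at least 1.18-fold higher as deposited, at a null signal under the brightest Bacillus control, and the control scaling left no bound (log2 -0.14).

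**Figure D2:**
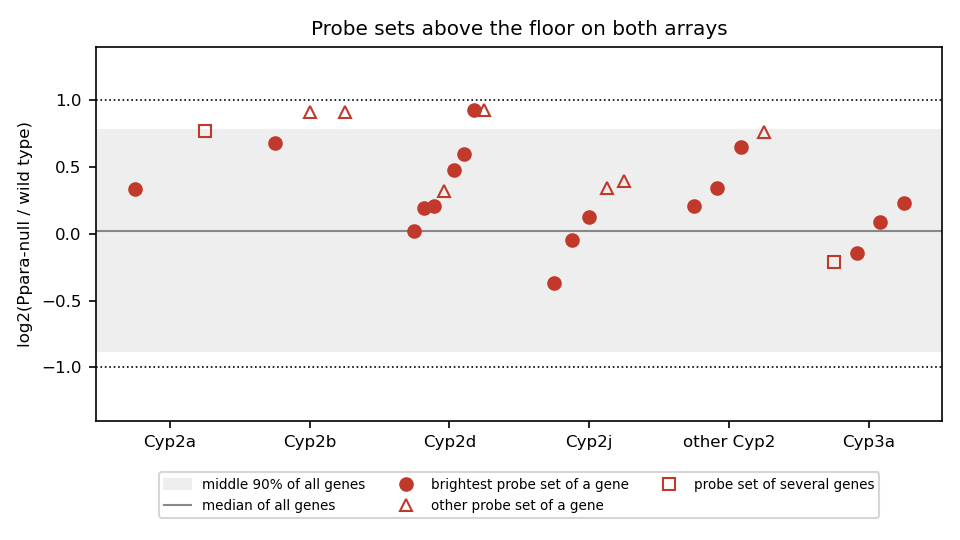
Log2 ratio of Ppara-null over wild type for each of the 26 probe sets that exceeded both floors, by subfamily, with the middle 90% of all 10060 genes above the floor on both arrays shaded and 2-fold marked by dotted lines. All 8 Cyp2d probe sets, of 6 genes, and all 3 Cyp2b probe sets, each of Cyp2b10, lie above 0 as deposited. Over all probe sets above both floors 52.1% did, and no probe set drawn passes 2-fold. Probe sets of the same gene are not independent. After scaling to the hybridization controls (not drawn) 11 of the 26 probe sets (42.3%) lie above 0, against 20.7% of all probe sets. Counted by gene at the brightest probe set, 12 of the 17 genes then lie below 0. This leaves 29.4% of the 17 above 0, against 20.0% of all 10060 genes.

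Along chromosome 15, the 19 Cyp2d loci of RefSeq form 1 cluster in which 8 had a named probe set. Ratios did not follow the order of the genes: Cyp2d10 (log2 ratio 0.60) is followed by Cyp2d9 (0.21), and Cyp2d40 (0.93) and Cyp2d26 (0.19) are separated by a single pseudogene. On chromosome 7, the Cyp2a, Cyp2b, Cyp2f, Cyp2g, Cyp2s and Cyp2t loci form a cluster of 17, with 3 genes above the floor on both arrays. Their log2 ratios were 0.68 for Cyp2b10 near one end, and 0.33 for Cyp2a12 and 0.21 for Cyp2f2 near the other. The last pair turned negative under the control scaling (-0.05 and -0.17). The pair of Cyp2a genes with a shared probe set lies between Cyp2b10 and Cyp2a12. That probe set had a log2 ratio of 0.77 (0.39 after the control scaling), so the ratios did not fall steadily along the cluster.

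**Figure D3:**
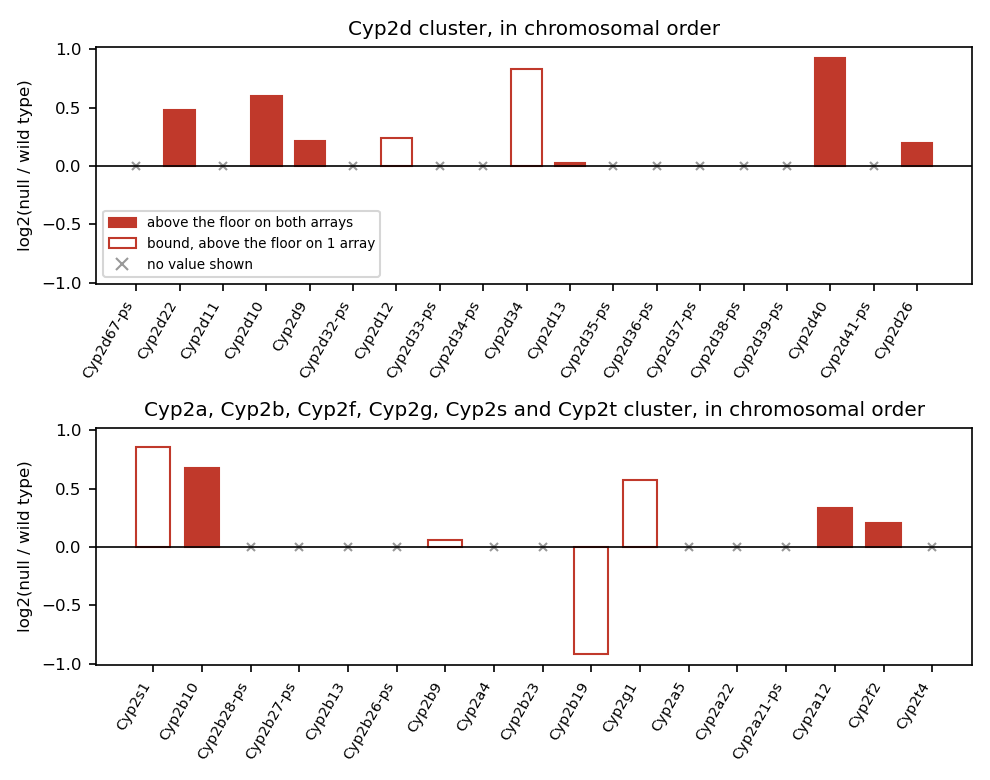
Log2 ratio of Ppara-null over wild type of each gene in the chromosome 15 and chromosome 7 clusters, in chromosomal order without distances; filled bars are genes above the floor on both arrays, open bars are bounds and crosses are loci without a value shown. Filled bars all lie above 0 as deposited, from 0.02 for Cyp2d13 to 0.93 for Cyp2d40, whereas 5 of these 9 lie below 0 after scaling to the hybridization controls. Of all 10060 genes above the floor on both arrays, 52.2% were positive as deposited and 20.0% after that scaling.

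The Cyp2j enzymes, which make epoxides from arachidonic acid, had small ratios of both signs. Cyp2j5, the main member of mouse liver and kidney, gave 49465 in null and 51123 in wild type (log2 ratio -0.05) at its brighter probe set, but 12815 in null and 9717 in wild type (0.40) at the other. Cyp2j6 gave 2161 in null and 2793 in wild type (-0.37) at one and 2386 in null and 1881 in wild type (0.34) at the other. The probe sets of either gene thus disagreed in sign, and neither gene can be given a direction. Cyp2j9 gave 680.2 in null and 624.3 in wild type (log2 ratio 0.12, or -0.26 after the control scaling). Cyp2j11 and Cyp2j13, at 47.4 and 159.6 in null and 267.0 and 200.2 in wild type, were under the floor on both arrays.

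Among Cyp2 genes that stand alone in their subfamily, Cyp2f2, a naphthalene-activating enzyme of liver and lung, gave 114398 in null and 99214 in wild type (1.15-fold). The control scaling turned its log2 ratio from 0.21 to -0.17. Of the 2 markers of lung club cells, Scgb1a1 (245.4 in null, 168.2 in wild type) was under both floors, and Scgb3a2 (325.3 in null, 22.1 in wild type) was dimmer than the brightest Bacillus control. Cyp2r1, a vitamin D 25-hydroxylase, gave 2098 in null and 1651 in wild type (1.27-fold), and its log2 ratio was 0.35 as deposited and -0.03 after the control scaling.

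Cyp2u1, a hydroxylase of long-chain fatty acids, was higher in null at both of its probe sets. They gave 681.0 and 522.1 in null, against 433.0 and 307.3 in wild type, that is 1.57-fold and 1.70-fold, with log2 ratios of 0.27 and 0.39 left after the control scaling. The wild-type signal of the dimmer one was under the brightest Bacillus control of that array (316.5). Cyp2s1, an extrahepatic P450 that metabolises retinoids, gave 520.5 in null and 274.1 in wild type, at least 1.81-fold higher in null (1.39-fold after the control scaling). Cyp2g1, a gene of the olfactory mucosa, gave 427.8 in null and 17.0 in wild type, the widest ratio of raw signals in the set. The floor reduces it to at least 1.49-fold (1.14-fold after the control scaling), and the null signal is just above the brightest Bacillus control of 422.4.

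The Cyp3a subfamily, which oxidises a large share of drugs and also steroids and bile acids, was nearly level between the genotypes as deposited. Cyp3a11, the main Cyp3a enzyme of adult mouse liver and the standard PXR target, gave 158617 in null and 149013 in wild type, 1.06-fold. Its log2 ratio of 0.09 turned to -0.14 after quantile normalization and -0.29 after the control scaling. Cyp3a25 gave 63672 in null and 54357 in wild type (1.17-fold, log2 ratio 0.23, or -0.15 after the control scaling). Cyp3a13, expressed in liver and intestine, gave 18807 in null and 20814 in wild type (log2 ratio -0.15), with a negative ratio under every scaling tried.

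The remaining Cyp3a probe sets belong to genes that are known mainly from female or young mouse liver. The probe set shared by a pair of Cyp3a genes gave 633.4 in null and 734.6 in wild type (log2 ratio -0.21, or -0.59 after the control scaling). Cyp3a44 gave 340.6 in null and 241.6 in wild type, a bound of at least 1.18-fold as deposited, at a null signal under the brightest Bacillus control, and the control scaling left none (log2 -0.14). Cyp3a16, with 19.6 in null and 20.6 in wild type, was far under the floor on both arrays. As deposited, none of the Cyp3a probe sets that exceeded both floors reached 1.5-fold, and after the control scaling the shared one was lower by slightly more than that.

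The sensors of these genes were read beside them. Nr1i3 (CAR) gave 9585 in null and 9363 in wild type (log2 ratio 0.03), Nr1i2 (PXR) 1714 in null and 1862 in wild type (-0.12), and Ahr 4604 in null and 3929 in wild type (0.23). As deposited all were smaller in size than the pooled SD between probe sets of a gene, which does not measure spread between mice. After the control scaling they were -0.35 for Nr1i3, -0.50 for Nr1i2, larger in size than that SD, and -0.15 for Ahr. Of 15 measured genes among the 20 receptors and partners listed, 0 were at least 2-fold higher (all measured genes 2.80%) and 1, Ppara itself, was lower (4.99%). Their median log2 ratio was 0.14. Pparg, the adipocyte PPAR, gave 1046 in null and 537.5 in wild type, 1.95-fold higher in null and named here after its value was seen.

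Genes that P450 enzymes need for activity were mostly level as deposited. Of the 6 electron transfer genes and partners listed, 5 were measured and 0 differed by 2-fold, where 2.80% of all measured genes were higher and 4.99% lower. Among these, cytochrome b5 (Cyb5a) gave 107606 in null and 90281 in wild type (log2 ratio 0.25). Por, the reductase that serves all microsomal P450 enzymes, was not analysed here. Alas1, the rate-limiting enzyme of heme synthesis in liver, gave 54477 in null and 53730 in wild type (log2 ratio 0.02). Of 11 measured heme genes 0 were at least 2-fold higher in null (all measured genes 2.80%) and 1 was lower (4.99%). It was Ppox, an enzyme near the end of the heme pathway, with 280.6 in null and 641.4 in wild type (2.29-fold). Its null signal was close to the floor of 269.4 and under the brightest Bacillus control of that array (422.4). The median log2 ratio of the 11 was -0.16.

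Other oxidising enzymes of xenobiotics, such as flavin monooxygenases and alcohol dehydrogenases, had a median log2 ratio of -0.25 over 16 measured genes. In this list 0 were at least 2-fold higher (all measured genes 2.80%) and 1 was lower (4.99%), Fmo4, with 483.5 in null and 1061 in wild type (2.19-fold). Ephx1, the microsomal epoxide hydrolase and a known CAR target, gave 41742 in null and 51270 in wild type (log2 ratio -0.30). Of the 6 Ahr targets listed outside the P450 genes, 2 were measured and 0 differed by 2-fold, the quinone reductase Nqo1 with 669.0 in null and 1227 in wild type (1.83-fold lower) and Tiparp with 1154 in null and 1258 in wild type (log2 ratio -0.12).

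The 2 P450 groups most like these genes were more spread out. Log2 ratios of genes above the floor on both arrays had an SD across genes of 0.33 in the 17 genes described here, of 1.05 in 10 Cyp2c genes and of 1.93 in 9 Cyp4 genes, against 0.54 in all 10060 genes. The Cyp4 value rests largely on Cyp4a31, with a log2 ratio of -5.44, while the rest of the 9 ran from -0.90 to 1.19. Cyp4a14, under the floor on the null array, is not among the 9. In Cyp2c, 1 of 10 measured genes was at least 2-fold higher in null and 2 were lower, and in Cyp4 1 of 11 was higher and 2 were lower, against 2.80% higher and 4.99% lower over all measured genes. Their medians were 0.37 for Cyp2c and -0.20 for Cyp4. With 1 array per genotype these differences between groups of genes could not be tested.

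**Figure D4:**
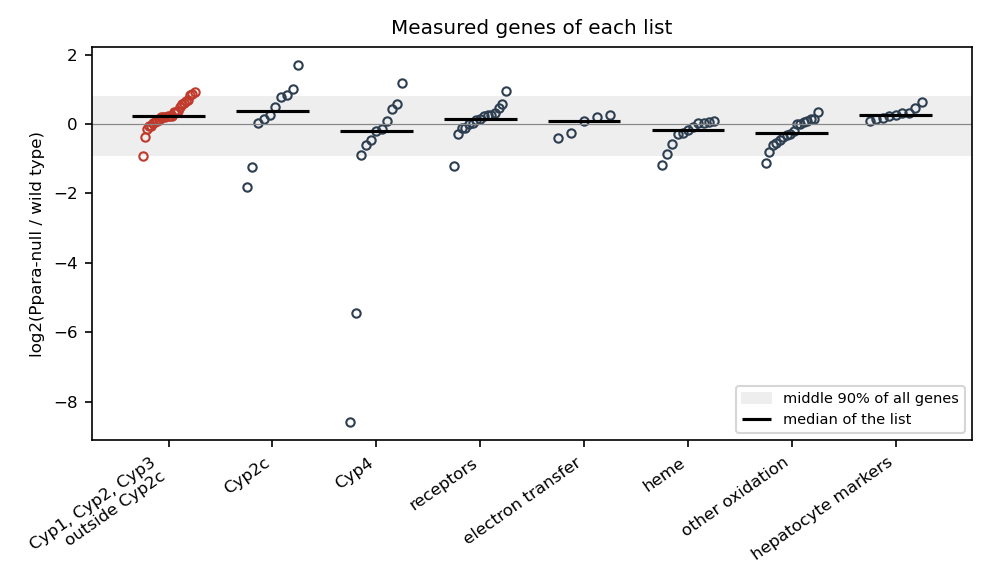
Log2 ratio of Ppara-null over wild type of each measured gene, bounds included, in the Cyp1, Cyp2 and Cyp3 genes outside Cyp2c, in Cyp2c and Cyp4, in 4 lists of related genes and in the hepatocyte markers; black bars are medians and the shaded band is the middle 90% of all 10060 genes above the floor on both arrays. The first group (median 0.23) stays between -0.92 and 0.93, and the hepatocyte markers have a median of 0.26; the control scaling lowers every point by 0.38.

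Scaling moved the members together with the other genes of the array. The median of the 17 members exceeded that of all 10060 genes by 0.19 before and after the control scaling, since that scaling shifts both alike, whereas the sign of many members depended on it. Among the 989 genes of the array with a mean signal of at least 10000, a limit chosen after seeing the data, the median log2 ratio was 0.07, and among the 9 such members it was 0.21. Of the 17 members above the floor on both arrays, 5 (Cyp2b10, Cyp2d10, Cyp2d22, Cyp2d40 and Cyp2u1) had a positive log2 ratio under all 5 scalings. A further 3 (Cyp2j5, Cyp2j6 and Cyp3a13) had a negative one under all of them at the brightest probe set, and 9 changed sign under at least 1. Centred on the hepatocyte markers, a choice also made after seeing the data, the median of the 26 measured members was -0.03.

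**Figure D5:**
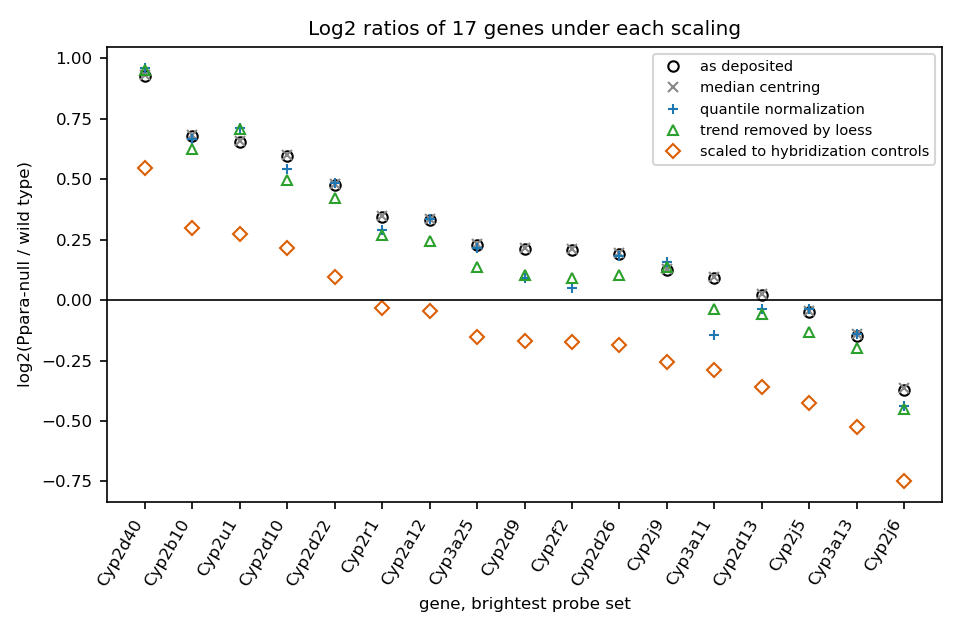
Log2 ratio of Ppara-null over wild type of the 17 genes above the floor on both arrays, at the brightest probe set, as deposited and under 4 other scalings, ordered by the deposited ratio. Cyp2d40, Cyp2b10, Cyp2u1, Cyp2d10 and Cyp2d22 lie above 0 and Cyp2j5, Cyp3a13 and Cyp2j6 below 0 at every symbol (other probe sets of Cyp2j5 and Cyp2j6 were positive as deposited), while the scaling to hybridization controls (diamonds) moves all points down by 0.38 and the other 9 genes across 0.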

How the data were processed

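The deposited table gives a linear signal intensity for every probe set on each of 2 arrays. These intensities come from the Affymetrix statistical algorithm, with all probe sets scaled to a target of 1000, per the labels; the mean without the lowest and highest 2% was 1000.01 on each array. The software version is not given in the sources used here, and no detection calls were used. Genes were named from the platform annotation of 2016: 34945 probe sets had 1 symbol, 932 several and 9160 none. All 34 symbols of the family members were found in RefSeq. Signals were used without further scaling, floored at each array's median and compared as log2 ratios of null over wild type, at 2-fold or more, in Python 3.11.15 (pandas 2.3.3, statsmodels for the loess trend). Promoters were aligned globally with Biopython 1.88.

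The members, the gene lists, the floor and the alternatives were chosen with earlier results of these data known. Every member gene may be named, and of the other lists Ppara, Nr1i3, Nr1i2, Ahr and Por and each gene at least 2-fold apart; Pparg, Cyb5a, Alas1, Ephx1, Nqo1, Tiparp, Scgb1a1, Scgb3a2, Cd68 and Alas2 were named beyond this rule, after their values were seen. Alternatives were 4 other scalings, 4 other floors, other choices of probe set and other thresholds. The calling procedure was checked on simulated data with planted changes. The number of arrays limits the precision.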

Additional observations from a re-analysis of the deposited data

How the results depend on the processing

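The count of 0 genes of the 3 families at least 2-fold higher in null was the same under all 4 other scalings planned, with floors at the 75th percentile and at the brightest Bacillus control, with a gene taken as the median of its probe sets, without _x_at and _s_at probe sets, and at a threshold of 3-fold. It became 4 (Cyp2b13, Cyp2d12, Cyp2d34 and Cyp2g1) with the floor at the 25th percentile and 4 with no floor, and 6 at a threshold of 1.5-fold. The count of 0 lower in null became 2 (Cyp2b19 and Cyp2j11) with the floor at the 25th percentile and 2 with no floor, and 1 (Cyp2b19) after scaling to the hybridization controls, after centring on the hepatocyte markers and at a threshold of 1.5-fold. At that threshold, the 6 higher and 1 lower became 0 and 2 after the control scaling and 2 and 2 after centring on the hepatocyte markers. The 6 genes named above were under the main floor on at least 1 array. The median log2 ratio of the members, 0.23, lay between 0.20 and 0.25 under the other planned settings, except after scaling to the hybridization controls, where it was -0.15, and it was -0.03 after centring on the hepatocyte markers and 0.21 over genes above the floor on both arrays, both chosen after seeing the data.

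Over the whole array, 365 measured genes were higher in null by 2-fold or more and 651 lower (35.9% higher). This became 109 and 1759 (5.84%) after the control scaling, 156 and 1286 (10.8%) after centring on hepatocyte markers, 303 and 297 (50.5%) with floors at the brightest Bacillus controls, 1650 and 2336 with the floor at the 25th percentile, 98 and 157 with it at the 75th, 2177 and 3096 with no floor, and 225 and 363 over genes above the floor on both arrays. No paired analysis was possible because each genotype has 1 array, and for the same reason no replicate could be left out.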
